A study of Drosophila melanogaster with 3 samples.

Results

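Distal intergenic summits of tagged Scute are the positions of highest signal that lay outside every protein-coding gene body and over 5000 bp from the nearest protein-coding transcription start. They were picked by position alone from the authors' thresholded region list in the dm6 assembly, with Ensembl gene models, and they numbered 350 of 3612 thresholded summits (9.69%, 95% Wilson interval 8.77 to 10.7%). The regions came from chromatin immunoprecipitation and sequencing (ChIP-seq) of whole Drosophila melanogaster embryos. The flies were a transgenic line in which Scute (sc) carried eGFP at its C terminus, embryos of mixed sex were collected from 0 to 14 h, chromatin was sonicated to between 200 and 800 bp, and an anti-GFP antibody was used. The 3 biological replicates formed a single group, so no genotype, stage or treatment could be compared. Whole embryos mix tissues in which sc is active with tissues in which it is not, and the protein mapped is a tagged fusion rather than the endogenous one. No measurement in the lists checks the tag or the target.

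Scute is a basic helix-loop-helix transcription factor of the proneural class. It binds DNA as a heterodimer with Daughterless at E-boxes of the form CANNTG, and it is known for giving ectodermal cells the competence to become neural precursors. Much of the regulation of fly developmental genes runs through enhancers that lie many kilobases from the promoter, in the long gaps between genes, and the classical sensory organ enhancers of the achaete-scute complex itself lie in such sequence. Distal summits are therefore set here against 3 other kinds of place: near intergenic summits, over 500 and up to 5000 bp from a start and outside gene bodies; deep gene body summits, inside a body but over 5000 bp from any start; and promoter summits, within 500 bp of a start.

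The genomic sequence under the strongest distal summits is printed first, because these are the places the ranks turn on. The 201 bp around the summit are shown for 6 of the 10 strongest, in Release 6 coordinates from the RefSeq sequence of the assembly. Capitals mark E-boxes (CANNTG on either strand).
CG4004 to Paics, chrX:12752282-12752482, plus strand: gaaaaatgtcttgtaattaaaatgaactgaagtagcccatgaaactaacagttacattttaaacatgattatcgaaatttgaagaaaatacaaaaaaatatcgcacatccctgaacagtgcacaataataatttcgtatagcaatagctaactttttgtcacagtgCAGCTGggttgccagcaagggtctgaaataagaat
Cyt-c1L to eEF1gamma, chr3R:29214355-29214555, plus strand: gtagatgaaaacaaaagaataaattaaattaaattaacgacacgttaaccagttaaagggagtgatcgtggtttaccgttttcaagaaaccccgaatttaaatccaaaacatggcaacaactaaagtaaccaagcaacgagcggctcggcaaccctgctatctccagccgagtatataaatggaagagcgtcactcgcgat
Ids to sty, chr3L:3394915-3395115, plus strand: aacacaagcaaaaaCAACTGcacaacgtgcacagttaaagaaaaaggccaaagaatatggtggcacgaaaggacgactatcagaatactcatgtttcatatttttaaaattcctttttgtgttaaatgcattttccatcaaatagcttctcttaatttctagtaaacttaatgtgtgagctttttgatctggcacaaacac
RFeSP to chinmo, chr2L:1638647-1638847, plus strand: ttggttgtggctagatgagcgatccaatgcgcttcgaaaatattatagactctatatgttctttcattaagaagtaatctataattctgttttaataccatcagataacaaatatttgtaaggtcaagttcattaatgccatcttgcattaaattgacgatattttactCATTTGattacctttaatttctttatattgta
CG11550 to CG42693, chr3R:31687057-31687257, plus strand: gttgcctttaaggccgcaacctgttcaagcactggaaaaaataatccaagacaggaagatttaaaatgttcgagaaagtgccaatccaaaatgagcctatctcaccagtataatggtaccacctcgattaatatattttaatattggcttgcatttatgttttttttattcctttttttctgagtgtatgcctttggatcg
CG9300 to Shal, chr3L:19560742-19560942, plus strand: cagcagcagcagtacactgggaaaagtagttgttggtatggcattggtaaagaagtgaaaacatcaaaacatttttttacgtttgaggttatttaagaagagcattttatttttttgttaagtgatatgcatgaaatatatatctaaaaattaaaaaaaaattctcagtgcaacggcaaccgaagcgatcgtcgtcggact
Of these 6 windows, 3 held 1 E-box each and 3 held none.

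A longer form of the E-box, GCAGCTG or GCAGGTG, is the textbook site of achaete-scute proteins with Daughterless. It was rare at distal summits: 16 of 348 windows with a usable flank held either form. The 61 bp around GCAGCTG are shown for the 6 best-ranked summits, among the arms printed here, that held either form, so that the site can be seen in its context. Each stretch is centred on the site and not on the summit. Only the last, from CG10750 to dnt, contains its summit position, and in the others the summit lies outside the printed bases. Capitals mark GCAGCTG or its reverse complement CAGCTGC.
CG4004 to Paics, chrX:12752420-12752480, plus strand: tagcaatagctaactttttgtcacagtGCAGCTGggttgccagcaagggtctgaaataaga
vvl to Prat2, chr3L:6824059-6824119, plus strand: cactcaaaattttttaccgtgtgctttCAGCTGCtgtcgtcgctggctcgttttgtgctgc
noc to CG33648, chr2L:14500551-14500611, plus strand: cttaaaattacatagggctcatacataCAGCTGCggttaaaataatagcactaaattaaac
CG9932 to Ttc30, chr2L:13073817-13073877, plus strand: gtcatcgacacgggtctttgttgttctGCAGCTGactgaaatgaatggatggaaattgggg
CG13898 to Sf3b3, chr3L:820589-820649, plus strand: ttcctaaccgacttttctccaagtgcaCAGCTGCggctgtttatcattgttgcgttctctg
CG10750 to dnt, chr2L:19335302-19335362, plus strand: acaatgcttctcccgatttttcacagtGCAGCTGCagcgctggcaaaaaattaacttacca
In the last of them the site and its reverse complement overlap by all but 1 base, so the palindromic core can be read from either strand.

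Distal summits spanned a wide range of distance and were mostly of modest signal. Their distance to the nearest start ran from 5056 bp to 72165 bp with a median of 11382 bp. Of the 350, 210 lay over 10 kb from any protein-coding start, 54 over 20 kb and 23 over 30 kb. Starts of noncoding genes were not counted in these distances. When every annotated gene other than transposable elements was used, 188 summits met the 5000 bp limit. The farthest, chr3R:10506739-10507168, was 72165 bp from the start of Cyp12e1, yet only 606 bp from the edge of hth, a homeodomain cofactor of the Hox proteins whose own start lies at the far end of its long body. Distance from a start thus did not mean distance from a gene. Region widths had a median of 430 bp, between 108 and 508 bp.

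Pooled signal at distal summits had a minimum of 147, a median of 207 and a maximum of 2161, on the authors' scale. The medians were 219 at near intergenic, 215 at deep gene body and 256 at promoter summits. Next to the limit, the 16 distal summits up to 500 bp beyond 5000 bp had a median signal of 183, and 6 of them were found in all replicates. The 29 intergenic summits up to 500 bp short of it had a median of 196, and 15 were found in all replicates. Signal had no steady trend with distance within the distal set. The median was 203 at 5 to 10 kb (140 summits), 221 at 10 to 20 kb (156 summits) and 203 beyond 20 kb (54 summits), and Spearman's rho between distance and rank was 0.0169, -0.0328 and -0.056 in replicates 1, 2 and 3, given as a description over 350 summits that share libraries.

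The summit with the best mean rank, chr2R:13035155-13035520, lies in the gap between Su(z)2 and CG13323. It ranked 2, 3 and 5 among all regions of replicates 1, 2 and 3, and was 11919 bp from the start of CG13323. The next, chr2R:22678167-22678644 in the gap between RYBP and Ppa, ranked 34, 25 and 34. The next after it, chr2R:12959356-12959630 between CG13321 and Psc, ranked 52, 40 and 27. Psc and Su(z)2 encode related RING finger proteins of the Polycomb group, which keeps developmental genes silent, and RYBP encodes a partner of Polycomb complexes. The Psc start was 21223 bp from its summit and the Su(z)2 start 38214 bp, and in neither case was it the nearest start. These 3 were picked by their ranks, so their place at the top is a description. RYBP was not on the Polycomb and trithorax list, and the next summits by mean rank, described below, lay beside genes of other kinds.

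The next summits by mean rank were close behind. The summit between CG4004 and Paics, a gene of purine synthesis, ranked 41, 47 and 41 and lies inside the long noncoding RNA gene lncRNA:CR44619. The summit between Cyt-c1L and eEF1gamma, which encodes a subunit of a translation elongation factor, ranked 58, 33 and 44. The sixth by mean rank, at chr3L:3394875-3395257 between Ids and sty, ranked 140, 118 and 131, and sty encodes Sprouty, an antagonist of receptor tyrosine kinase signalling. Another summit of the same gap, chr3L:3396126-3396402, ranked 234, 213 and 347, so this gap held 2 of the 15 strongest. A summit with no region of its own in a replicate was given the lowest rank there, 30000, which befell 4, 1 and 3 distal summits in replicates 1, 2 and 3. One of them, in the gap from CG13896 to hng3 on 3L, ranked 72 and 109 in replicates 2 and 3 and so fell out of the 15. Another distal summit lay 205 bp from it and took rank 110 in replicate 1. Regions of 16 distal summits overlapped each other in this way, and merging them left 342 separate stretches.

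The rest of the 15 lay beside genes of several kinds. The summit next to slbo, the fly C/EBP of border cell migration, ranked 106, 143 and 189. The summit at chr2L:1638603-1638983 between RFeSP and chinmo, a BTB zinc finger gene of neuronal temporal identity, ranked 204, 254 and 204. The summit between CG9300 and Shal, a voltage-gated potassium channel gene, ranked 245, 266 and 236. The replicate ranks of these 3 stayed close to each other, while those of the summit between CG4218 and CG3473 were 250, 134 and 407. The other 4, in the gaps CG11550 to CG42693, CG13334 to CG42807, CheA75a to CG5103 and CG44362 to CG7560, ranked between 182 and 461 in every replicate.

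**Figure D1:**
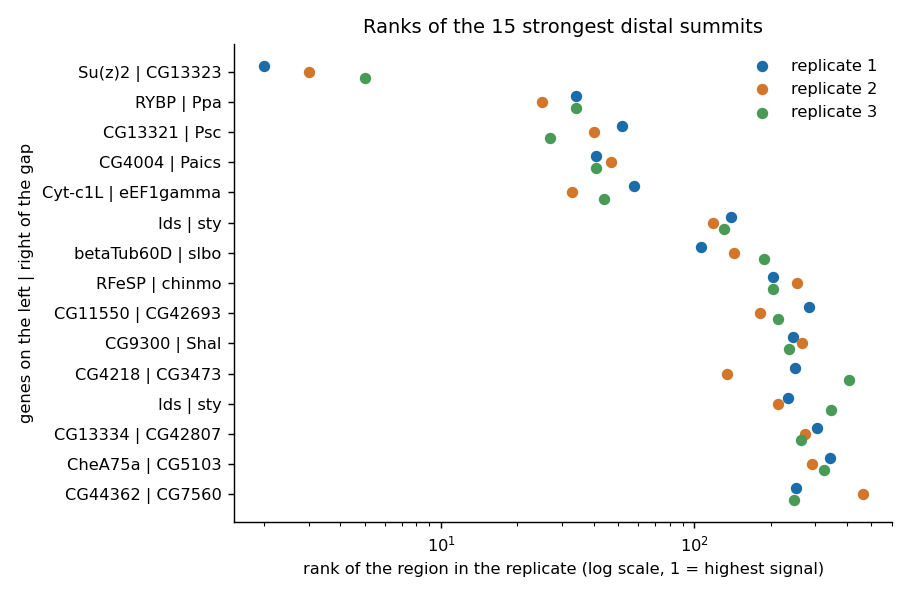
Rank of each of the 15 distal summits with the best mean rank (one row per summit, named by the genes on either side) in replicates 1, 2 and 3, on a log axis where 1 is the highest signal of that replicate. The summit beside Su(z)2 stands at ranks 2, 3 and 5, 4 more lie between 25 and 58, and the rest lie beyond rank 100.

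Few of the very strongest regions were distal. Of the 100 thresholded summits with the best mean rank, 5 were distal, and of the best 500, 31 were (6.2%, against 9.69% of all thresholded summits). The median rank of distal summits was 2198, 2214 and 2122 in replicates 1, 2 and 3 (mean 2178 ± 48.7, SD, n = 3). It was 1864, 1854 and 1852 over all thresholded summits. Promoter summits ranked better in every replicate, with medians of 1514, 1635 and 1596, a difference of 597 ± 80.3 ranks (SD, n = 3). Near intergenic summits had medians of 2143, 1911 and 1982 (difference 166 ± 126), and deep gene body summits 2188, 2040 and 2072 (difference 78 ± 85.1). Distal summits thus had the worse median in all 3 replicates of each comparison, by less than the SD of the replicates against deep gene body. The exact sign-flip permutation test over replicates (two-sided) gave p = 0.25 in each comparison, the smallest p that 3 replicates allow.

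The share of distal summits found again in every replicate was close to that elsewhere. A summit counted as found when a region among the 3612 highest of the replicate had it as its nearest thresholded summit within 250 bp. Replicates 1, 2 and 3 held 283, 281 and 285 of the 350 (80.9% ± 0.571, SD, n = 3, against 82.8% ± 1.33 over all thresholded summits). All 3 replicates held 211 of 350 (60.3%, 95% Wilson interval 55.1 to 65.3%), against a background of 62.5% over all 3612. Near intergenic summits reached 58.7% (230 of 392; exact Fisher test, two-sided, adjusted p = 0.724) and deep gene body summits 61.6% (322 of 523; adjusted p = 0.724). Promoter summits reached 65.2% (890 of 1364; exact Fisher test, adjusted p = 0.274, Benjamini-Hochberg over 3 comparisons), and distal minus promoter was -4.96 percentage points. When any of the highest regions within 250 bp was accepted, a rule added after seeing the data, the distal share was 62.3% and the promoter share 70.9%, and that difference passed (exact Fisher test, adjusted p = 0.00682). In 3 broad bins of distance the share was 60% at 5 to 10 kb, 60.3% at 10 to 20 kb and 61.1% beyond 20 kb. Neighbouring regions are not independent, the thresholded list was itself made from these replicates, and the p-values treat each region as a unit.

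Distal regions passed the authors' irreproducible discovery rate (IDR) threshold less often than intergenic regions nearer to genes in the whole pooled list; among regions with a q-value under 5% the difference did not pass the test. The pooled list is labelled as peaks and background for input to the IDR step, and the regions that passed were its 3612 highest by signal. The shares that passed thus follow pooled signal and are not a separate measure of reproducibility. Of the 4462 distal regions in the pooled list, 350 passed (7.84%, 7.09 to 8.67%), against 12.0% of all 30000 pooled regions. Near intergenic regions passed at 9.67% (392 of 4054; exact Fisher test, two-sided, adjusted p = 0.00456) and promoter regions at 21.8% (1364 of 6245; adjusted p = 3.60e-90). The share of deep gene body regions, 8.30% (523 of 6298), was not separated from the distal share (exact Fisher test, adjusted p = 0.41). A q-value under 5% was held by 21.7% of all pooled regions and by 734 distal ones, of which 47.7% passed the threshold, against 53.0% of 740 near intergenic ones (exact Fisher test, adjusted p = 0.0716). Restricted to distal regions over 10 kb from a start, the difference from near intergenic regions was -1.31 percentage points and no longer passed (exact Fisher test, adjusted p = 0.118).

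Per unit of sequence, distal space held fewer summits than near intergenic sequence. Distal sequence made up 25.8 Mb, or 19.3% of the called bases, and held 13.6 thresholded summits per Mb. The 3612 highest regions of each replicate gave 13.5, 12.8 and 14.2 per Mb (13.5 ± 0.679, SD, n = 3). Replicate densities were 27 ± 0.837 per Mb in near intergenic sequence, 14.4 ± 0.485 in deep gene bodies and 91.5 ± 3.49 at promoters. The distal values lay below the near intergenic and promoter values in every replicate, while the distal and deep gene body ranges overlapped.

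The 20% of each large arm nearest to the centromere held 43.3% of the distal sequence but only 25 of the 350 distal summits. That cut was chosen after seeing the data. Density there was 2.25 per Mb, against 22.3 per Mb in the remainder of the same arms. Outside it, the replicates gave 21.7 ± 0.932 distal summits per Mb (SD, n = 3), now above deep gene bodies at 18 ± 0.669 and still below near intergenic sequence at 29.4 ± 0.656. The order of distal and deep gene body sequence thus depended on whether the centromere-proximal sequence was counted. Distal regions of the whole pooled list, background included, were also sparse in the proximal part. They stood there at 10.4 per Mb on 3L, 13.1 on 2R, 49.1 on X, 88.7 on 3R and 142 on 2L. Over the whole of these arms, in the same order, they stood at 213, 109, 131, 169 and 230 per Mb. Bases that the assembly marks as repeats made up 34.1 to 49.6% of distal sequence in the proximal part of these arms and 19 to 25.7% elsewhere. The part of repeats, or of how reads were placed in them, in the low density was not tested.

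**Figure D2:**
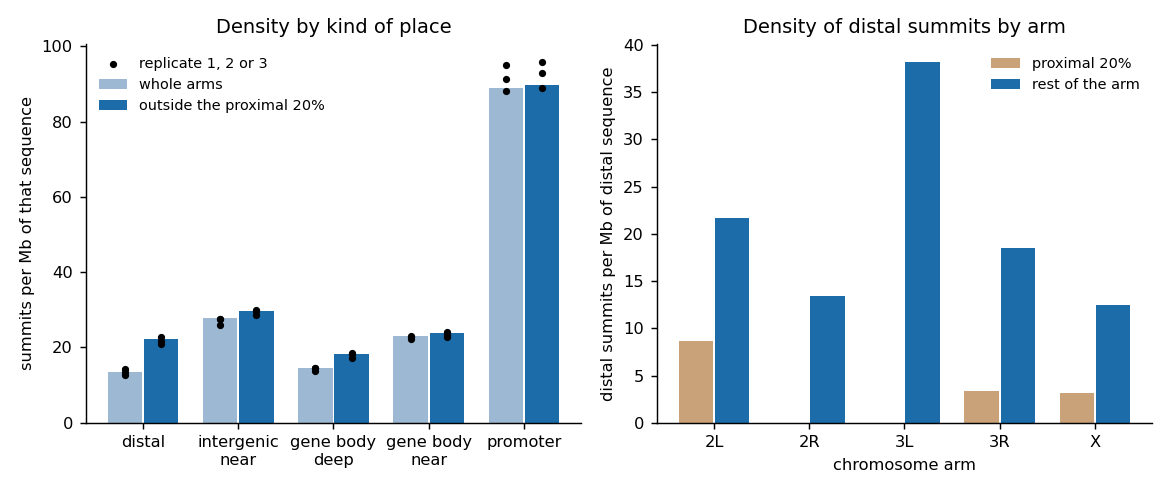
Left, thresholded summits per Mb of each kind of sequence (bars) and the same from the 3612 highest regions of each replicate (points), over whole arms and without the proximal 20% of the 5 large arms. Right, distal summits per Mb of distal sequence in the proximal 20% and in the rest of each arm. Distal density rises from 13.6 to 22.3 per Mb without the proximal part, and arm 3L reaches 38.2 per Mb.

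Arm 3L carried more distal summits than any other arm. It held 136 of the 350 (38.9%), while it held 22.6% of all thresholded summits and 26.1% of distal sequence. Replicate densities were 20.8, 17.8 and 20.7 per Mb on 3L (19.8 ± 1.68, SD, n = 3), 16.3 ± 0.91 on 2L, 13 ± 0.885 on 3R, 9.34 ± 0.286 on X and 6.91 ± 0.324 on 2R. In each replicate 3L stood above every other arm. On 3L and 2R no distal summit fell in the proximal 20% of the arm, where the whole pooled list held only 33 and 39 distal regions. Outside the proximal 20% the densities were 38.2 per Mb on 3L, 21.7 on 2L, 18.5 on 3R, 13.4 on 2R and 12.5 on X. The small chromosome 4 held 2. Of the distal pooled regions, 9.50% (8.09 to 11.1%) passed the threshold on 3L, 8.29% (6.61 to 10.4%) on 3R, 7.43% (5.99 to 9.17%) on 2L, 6.23% (4.47 to 8.62%) on X and 5.47% (3.9 to 7.62%) on 2R. The intervals of 3L, 3R, 2L and X overlap.

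The distal summits of 3L were gathered in part in crowded gaps. The 5 gaps with the most distal summits were all on this arm and held 45 summits in 162 kb of distal sequence, or 278 per Mb. They were chosen for their counts, so that density is a description. The rest of 3L held 91 distal summits at 13.9 per Mb, or 26.8 per Mb outside the proximal 20%; crowded gaps of the other arms were not set aside, so these values are not compared with theirs.

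The most crowded gap, between CG7320 and CheA75a (chr3L:18203638-18252087, 48.5 kb), held 12 distal summits, 7 of them found in all replicates. The highest regions of replicates 1, 2 and 3 placed 11, 8 and 11 distal summits there. The gap from CG6168 to CG6163 (chr3L:11321720-11361985) held 9, with 8, 8 and 6 in the replicates, and the gap from CG44362 to CG7560 (chr3L:11397866-11425157) held 7, with 7, 7 and 6. The gap from hng3 to CG13898 (chr3L:755490-803426) held 6, with 9, 6 and 7, and tied with the gap from Or67d to CG12362, which was ranked after it by its best summit. In these 4 gaps the counts repeated across replicates to within 3 summits. Neighbouring summits in the first 3 of them were 1373 to 1826 bp apart at the median, against 5576 bp in the gap from hng3 to CG13898.

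**Figure D3:**
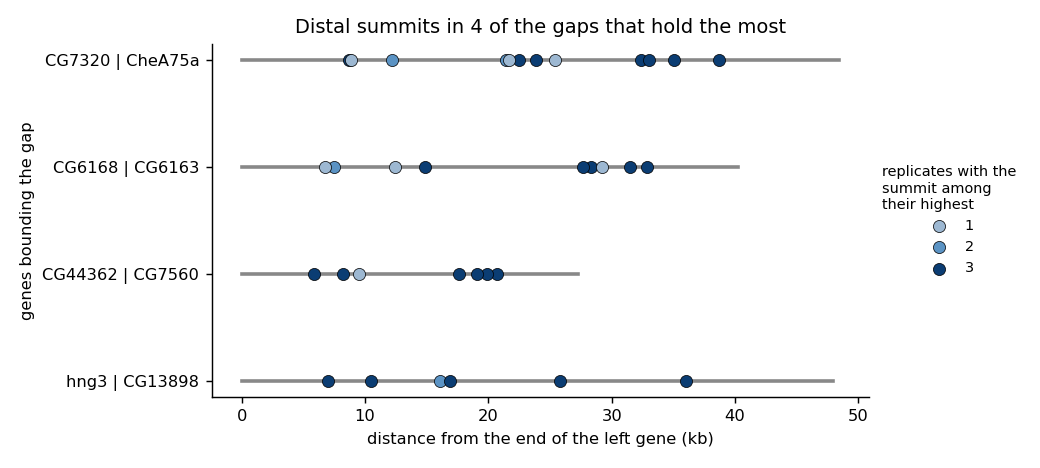
Distal summits (points) along 4 of the 5 gaps between protein-coding genes that hold the most of them; the axis is the distance in kb from the end of the gene on the left, grey lines span each gap, and darker points were found in more replicates. The gap between CG7320 and CheA75a holds 12 summits spread over 30 kb of its 48.5 kb.

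Across the genome, 172 of 1460 gaps with distal sequence (11.8%) held a distal summit. Such gaps were long, with a median of 28 kb against 14.6 kb for all eligible gaps. A single summit was found in 91 gaps, 2 in 43 and 3 or more in 38, and those 38 gaps held 173 of the 350. Of the 14 gaps with 5 or more, 9 were on 3L. Others of this kind lay on both sides of noc, a zinc finger gene of head and appendage development, with 5 summits in each gap. Further gaps with 5 adjoined tup, an Islet homeobox gene, vvl, a POU factor of trachea and nervous system, chinmo, sty and Myc. Summits alone in their gap were found in all replicates at 60.4%, and those in gaps with 3 or more at 63%.

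Distal summits had neighbours about as often as near intergenic ones. Another thresholded summit lay within 5000 bp of 181 of the 350 (51.7%), against 52.3% of near intergenic, 44.4% of deep gene body and 44.5% of promoter summits. None fell in an annotated transposable element, although 1 region overlapped one. That region was chr2L:14500424-14500853 between noc and CG33648, whose GCAGCTG site is printed above. A noncoding gene covered 47 distal summits (13.4%, 10.3 to 17.4%), all of them long noncoding RNA genes, 35 in number. The share was 11.5% for near intergenic and 4.02% for deep gene body summits, and no test was made of the difference.

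The genes that bound these gaps were examined by lists of known function, with every protein-coding gene next to distal sequence as background. A distal summit lay in a gap beside 322 of 2400 such genes (13.4%). The share rose with the amount of distal sequence beside the gene: 2.65% of 943 genes with under 5 kb, 12.5% of 808 with 5 to 20 kb, and 30.2% of 649 with over 20 kb. A gene that bounds a gap is not shown to be the target of a summit in it, and a pair of listed genes can share a gap, so counts within a list are not independent. No test was made of any list.

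Hox genes and their cofactors had the highest count for their number, with 7 of 8 beside a distal summit. Of the 6 with over 20 kb of distal sequence, 6 had one, against 30.2% of all genes in that range. The best summit beside tsh, a zinc finger partner of trunk Hox proteins, ranked 450, 513 and 367 in replicates 1, 2 and 3. The best beside abd-A, a Hox gene of the abdomen, ranked 584, 816 and 512. The gaps beside hth held 6 distal summits, the best at 1743, 741 and 1645. The abd-A summit was 29.2 kb from its start and the tsh summit 38.9 kb, and another gene had the nearest start in all 3 cases. Counted by nearest start alone, 3 Hox genes and cofactors remained. On the summits found in both remaining replicates, 5 remained without replicate 1 or without replicate 2, and 7 without replicate 3. Dfd and Scr count through 1 shared gap, in which no distal summit was found in all replicates.

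Anterior-posterior patterning genes had a distal summit in 10 of 21 cases (47.6%, against 13.4% of all genes), and in 7 of the 10 with over 20 kb of distal sequence (against 30.2%). The best summits ranked 667, 946 and 989 beside odd and 1028, 633 and 1120 beside hry, both pair-rule genes. That beside wg, the fly Wnt1, ranked 2379, 1111 and 988. Homeobox, T-box and forkhead genes taken by symbol reached 8 of 16, with croc at 518, 462 and 310, the T-box gene mid at 790, 902 and 470 and Doc1 at 964, 1433 and 2698. The endoderm and gut list reached 4 of 7, peb leading at 1275, 652 and 1044 with drm and Dr after it. Dr was also on the dorsal-ventral and neuroblast lists, so the same summits count in each of them. Tracheal and epidermal genes reached 3 of 7, namely vvl (622, 644 and 621), salm and salr. Dorsal-ventral genes had 2 of 8, the same share as the sensory organ precursor and neuroblast lists, with tup at 706, 627 and 799 and Dr at 2823, 1975 and 2257.

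In the lists tied to neural fate, which Scute is known for, distal summits lay beside 2 of 12 genes at the fewest and 4 of 7 at the most for their number, glial genes aside, and no test compared them with the patterning lists. The list drawn up as proneural bHLH had 1 of 3, Oli, whose summit ranked 2566, 3900 and 1537 and was missing from the highest regions of 1 replicate. No other gene of that list had a distal summit, and no proneural role of Oli is shown here. Sensory organ precursor genes had 3 of 12: pros, a homeodomain determinant of neural daughter cells, at 1373, 1179 and 810, and the Iroquois genes mirr and caup, which share a gap, at 1585, 947 and 2602. Neuroblast genes had 3 of 12, among them SoxN, a Sox factor of the neuroectoderm, with 3 summits and best ranks of 566, 269 and 496. The others were Dr and again pros, whose single summit thus counts in both the sensory organ precursor and the neuroblast list. The Notch pathway had 4 of 7, with Tom and BobA of the Bearded complex sharing a summit at 1771, 1725 and 1654 and the ligand gene Ser at 1698, 2785 and 2067. Neuron and axon guidance genes had 2 of 12, the Toll receptor gene Toll-6 and caps. With over 20 kb of distal sequence beside the gene, the counts were 3 of 6 for sensory organ precursor genes and 3 of 8 for neuroblast genes. In that range they were 2 of 6 for neuron and axon guidance genes and 1 of 1 for the Notch pathway. The proneural list had 1 of 1, again Oli. Of all genes in that range, 30.2% had a distal summit. At 5 to 20 kb the Notch pathway had 3 of 3, against 12.5% of all genes. Without replicate 1, or without replicate 3, the proneural list had none.

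The remaining lists lay on either side of the 13.4% of all genes, several on few summits. The Dpr, DIP, beat and side families, cell surface proteins of neuronal wiring, had 2 of 39, dpr17 and DIP-delta, and 1 of 13 where over 20 kb of distal sequence lay beside the gene (7.69% against 30.2%). Chemoreceptor genes had 3 of 42, among them Or67d, which bounds a 138 kb gap with 6 distal summits. With over 20 kb of distal sequence beside the gene they had 3 of 13 (23.1% against 30.2%). Defensive and cuticle protein genes, odorant binding proteins included, had 4 of 27 (14.8%). Counted on the summits found in both remaining replicates, the chemoreceptor list kept 1 gene without replicate 1 or without replicate 2, and the defensive and cuticle list 1 gene whichever replicate was left out. Mesoderm and muscle genes had 0 of 6, glial genes 0 of 1 and cytoplasmic ribosomal protein genes 0 of 11. Eye and limb genes had 3 of 14, B-H1 and B-H2 sharing 1 gap, but none without replicate 1, 1 without replicate 2 and 1 by nearest start. Polycomb and trithorax genes had 2 of 5, Su(z)2 and Psc as described above, and 0 by nearest start. Of all 322 genes beside a distal summit, 41.3% bore only a CG number as name, against 41.8% of those eligible.

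**Figure D4:**
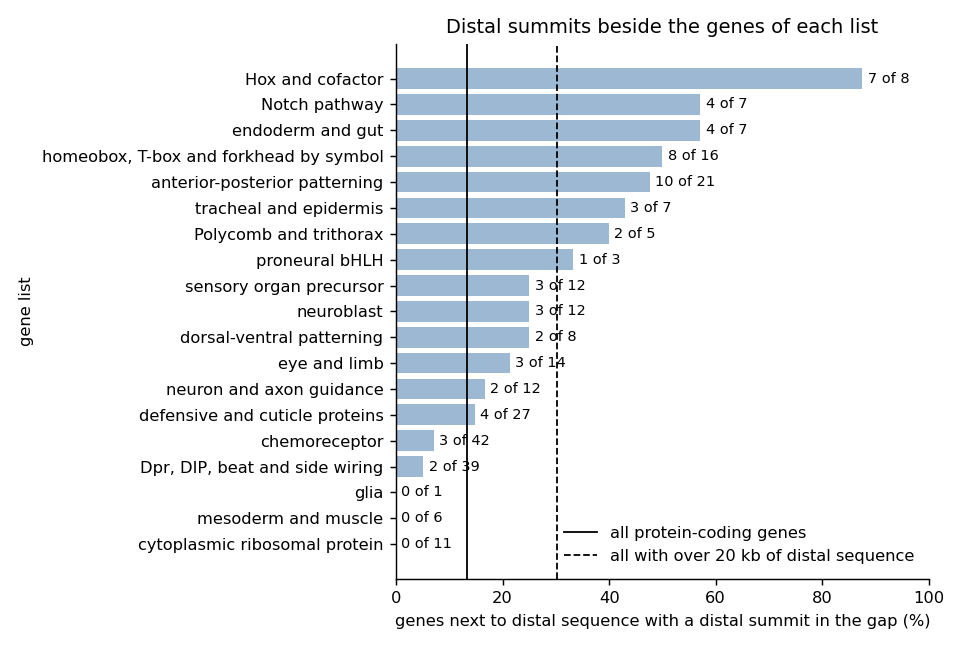
Percent of the genes next to distal sequence that have a distal summit in an adjoining gap, for 19 gene lists; the number of genes stands beside each bar, the solid line is the 13.4% of all protein-coding genes and the dashed line the 30.2% of those with over 20 kb of distal sequence. Hox genes and cofactors lead with 7 of 8, and the wiring and chemoreceptor families, with 2 of 39 and 3 of 42, lie left of the solid line.

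The sequence at distal summits was compared with windows of the same 201 bp placed 1000 bp away, over 348 pairs and 28 motifs sought on both strands. No motif was more frequent at the summits (0% of 28 called, and 0 at an unadjusted p under 0.05). None was less frequent after adjustment either (0% of 28 called, exact McNemar test, two-sided, Benjamini-Hochberg), although 4 were at an unadjusted p under 0.05. Those 4 were the E-boxes CAATTG (4.6 against 9.77%), CAACTG (8.33 against 14.1%), CACATG (4.6 against 8.62%) and CAGATG (5.46 against 10.1%). CAATTG passed when replicate 3 was left out and the summits found in both replicates 1 and 2 were kept, at 2.09 against 8.79% (exact McNemar test, adjusted p = 0.0432). GC content was 35% ± 6.71 (SD over 348 windows) at these summits and 41% ± 8.13 in the flanks, lower in 247 of 348 pairs, and its part in the motif shares was not tested.

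The achaete-scute site was no more frequent at distal summits than beside them. GCAGCTG was in 2.87% of summit windows (10 of 348; 95% Wilson interval 1.57 to 5.21%) and 3.45% of flanks, and GCAGGTG was in 1.72% of each. Over all thresholded summits the shares were 3.52% and 1.19%, and either form was in 4.62%. Both forms were less frequent there than in the flanks of those summits. Among all summits with a usable flank, GCAGCTG was in 3.53% against 5.09% of flanks (exact McNemar test, adjusted p = 0.00339). GCAGGTG was in 1.2% against 2.59% (exact McNemar test, adjusted p = 7.23e-05). The core CAGCTG, which GCAGCTG contains, was in 5.17% of distal windows and 8.33% of flanks. Its density was 0.171 sites per kb within 50 bp of distal summits, 0.286 at 50 to 100 bp and 0.464 at 400 to 800 bp. These densities are a description and were not tested. CATATG was at 8.62 against 5.46%, CAAGTG at 15.2 against 11.8% and CAAATG at 20.1 against 23.3%, none past the test. Over all 3612 windows these 3 hexamers were in 8.44%, 11% and 19.5%. No match says only that these letters are not in the window.

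Motifs of other factors did not separate the distal summits from their flanks either. The homeodomain core TAATTA was in 15.8% of summit windows and 16.4% of flanks, while at the other 3247 summits with a usable flank it was in 19.2% against 11.8%. A test of the difference between the distal and the other pairs, added after seeing the data, gave p = 0.005 and an adjusted p of 0.14 (exact Fisher test). By that test 0 of 28 motifs passed after adjustment and 3 had an unadjusted p under 0.05. The Sox site AACAAT was at 23.3 against 19.5%, the GATA site AGATAA at 14.1 against 12.6%, and the Zelda site CAGGTAG at 1.44 against 0.862%, with 24.6%, 15.4% and 1.14% over all thresholded windows. Among the other 3247 pairs, 7 motifs were more and 9 less frequent than in the flanks, a larger set in which smaller differences pass. The 9 include GACGGTC, a control heptamer with no known factor, at 0.277 against 0.801% (exact McNemar test, adjusted p = 0.012). A lower share at summits was thus not particular to factor sites. At distal summits the controls GACGCTC and GACGGTC were at 0.287 against 1.15% and 0 against 0.862%, neither past the test.

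**Figure D5:**
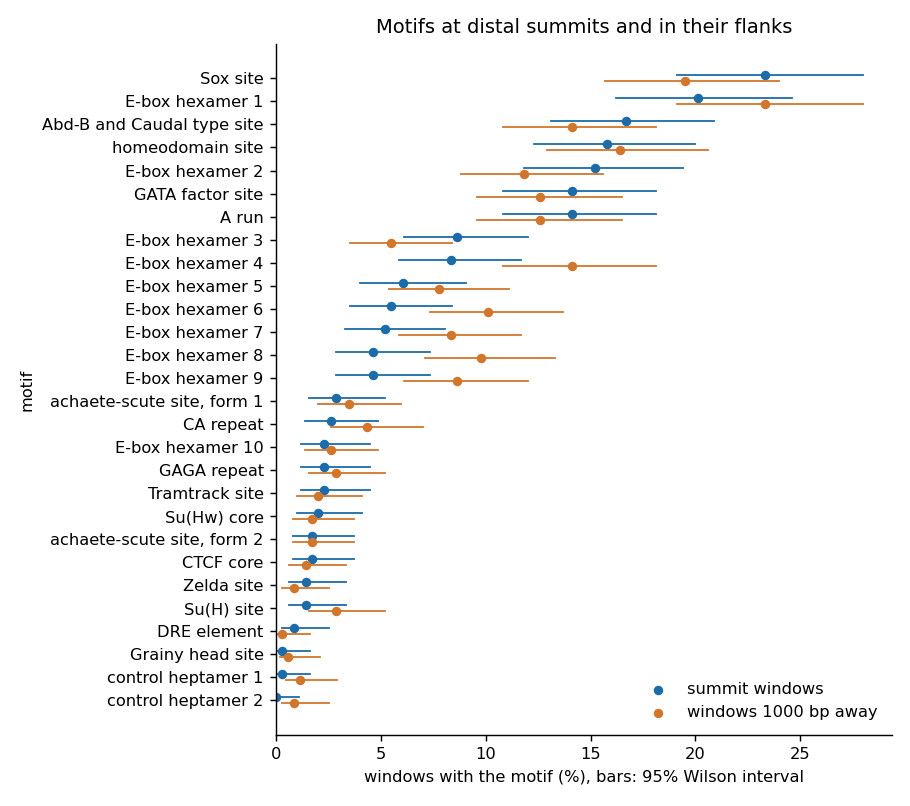
Percent of windows that hold each of 28 motifs at distal summits (blue) and 1000 bp away (orange), with 95% Wilson intervals over 348 windows each. E-box hexamer 4 is CAACTG, hexamer 6 is CAGATG, hexamer 8 is CAATTG and hexamer 9 is CACATG. These 4 show the summit value left of the flank value at an unadjusted p under 0.05 (exact McNemar test), and none passed after adjustment. Hexamers 1, 5, 7 and 10 also show the summit value on the left, without reaching that p. The intervals of the achaete-scute site, forms 1 and 2, overlap between summits and flanks.

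Set against the most similar kinds of place, distal windows showed no motif past the test in 56 comparisons with near intergenic and deep gene body windows (exact Fisher test, Benjamini-Hochberg). At an unadjusted p under 0.05, 4 were lower and 0 higher at distal summits. CAATTG had the smallest p, at 4.57% of distal against 10.7% of deep gene body windows (exact Fisher test, p = 0.00104, adjusted p = 0.0583). Over the summits found in both remaining replicates, it passed without replicate 2 (3.75 against 11.3%, exact Fisher test, adjusted p = 0.0455) and without replicate 3 (2.08 against 12%, adjusted p = 0.000244). GC content did not set the classes apart, at 34.9% ± 6.72 for distal summits and between 34.3 and 35% on average in the other classes.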

How the data were processed

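ChIP-seq of tagged Scute gave a region list for each of 3 replicates, a pooled list and an IDR-thresholded list, as the notes deposited beside them say. The authors' signal of each region, on a scale of its own list, served for ranks and was not compared between libraries as a level. The deposited −log10 q-value of each region served to pick regions below a q-value of 5%. The summit offset from the region start was also the authors'. The sources used here name no peak caller or aligner. The lists hold no read counts, so depth is not known, and 95% Wilson intervals cover counting error over regions only. A control alignment is named among the inputs and was not analysed here, nor were the dm3 lists used. The thresholded regions were the highest-signal 3612 of 30000 pooled regions.

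Coordinates are 1-based in dm6 (Release 6), with Ensembl release 115 models of protein-coding genes on 6 arms. Computation used Python 3.11.15, numpy 2.4.6, scipy 1.17.1 and matplotlib 3.10.9. Tests were exact Fisher, exact McNemar and exact sign-flip tests, two-sided, with Benjamini-Hochberg adjustment at 0.05. The Fisher and McNemar tests, without the adjustment, were tried on simulated data. The flank lay on the left, or on the right where the left one was within 300 bp of another summit, and 2 summits had neither. Named were the 15 summits with the best mean rank, the 5 gaps with the most summits (1 of them is not reported here), up to 3 genes of each list by their best-ranked summit, and the printed sequences by rank; other names were chosen after their values were seen. The members and lists were chosen with earlier results of these data known. Of the listed symbols 4 were matched by synonym and 3 were not matched. Alternatives covered the distance limit, the gene models, the matching rule, window and flank positions, and each replicate left out.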

Additional observations from a re-analysis of the deposited data

Results flagged for a closer look

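Below the authors' threshold, 384 distal regions of the pooled list had a q-value under 5%, more than the 350 that passed it. They lie outside the thresholded list described above. Of the 384, 37 matched a region with a q-value under 5% in all 3 replicates, 153 in 2, 162 in 1 and 32 in none. The control was not analysed here, and no call was made on any of them. In the replicates' own lists, 505, 639 and 767 regions with a q-value under 5% were distal, of 4853, 6346 and 6435.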

How the results depend on the processing

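The number of distal summits was 210 with a limit of 10 kb, 188 when every annotated gene other than transposable elements was used, and 233 to 240 when it rested on summits found in both remaining replicates with 1 left out. Shares found in all replicates, given as distal minus the other class in percentage points, ran from -4.09 to 2.24 against near intergenic summits when a replicate was left out, from -4.56 to -0.071 against deep gene body and from -5.79 to -4.3 against promoters. Against deep gene body the sign turned to 2.17 with matching within 100 bp and to 3.11 with a q-value under 5% as the criterion, which gave 4.01 against promoters; none of these passed. Accepting any of the highest regions within 250 bp, an alternative chosen after seeing the data, gave -8.61 against promoters, which passed. Beyond 10 kb the rank difference from deep gene body was -84.5. Left out in turn, the replicates gave rank differences of 97.8 to 222 against near intergenic, 30.2 to 112 against deep gene body and 553 to 632 against promoter summits. Shares that passed the threshold differed from near intergenic regions by -5.29 points among regions with a q-value under 5% and by -1.31 beyond 10 kb, neither past the test, and from deep gene body by 0.0523 beyond 10 kb. Without the proximal 20% of each arm, also added, the near intergenic difference was -1.77 and passed. Motifs called lower numbered 0 to 1 against flanks, and 0 to 1 against the other classes, with a replicate left out; none was called higher. The log2 ratio of summit to flank share was -0.25 for GCAGCTG as reported and ran from -0.16 to 0.16 with a replicate left out. It was -0.74 in windows of 50 bp on each side and 0.00 in windows of 200 bp. With flanks 500 and 2000 bp away it was -0.82 and -0.74. For GCAGGTG the ratio ran from -1.14 to -0.65 with a replicate left out, and from -0.55 to 0.28 with other windows or flanks. For CATATG it was -0.06 in windows of 200 bp on each side and -0.14 with flanks 500 bp away. None of these passed the test. By nearest start, 207 genes had a distal summit. The cause of these shifts was not tested. No replicate block between groups could be set, because the 3 replicates form a single group. The unknown read depth leaves the precision of each signal unknown.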
